A study of Caenorhabditis elegans with 2 samples.

Results

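The X chromosome of Caenorhabditis elegans carried 2021 of the 8777 DAF-16 peaks in the thresholded peak list of L4 larvae. Members were all entries of that list placed on chromosome X, in build ce11, with the summit at the start plus the summit offset. Another 6727 peaks lay on the 5 autosomes and 29 on the mitochondrial genome. The list is the deposited one labelled with the irreproducible discovery rate (IDR), a measure of how peak ranks repeat between replicates. It amounted to a cut on pooled signal, so not every member repeated. The weakest autosomal peak inside had a signal of 35.3914 and the strongest outside 35.3908. In neither replicate was there a summit within 100 bp for 30 X peaks and 122 autosomal peaks. Since membership of the X set used only the chromosome, positions, strengths, motifs and nearby genes were free to differ.

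Chromatin immunoprecipitation sequencing was done in 1 group of 2 biological replicates, with no second condition. The animals were whole L4 larvae of strain XE1464, males and females pooled, of unknown age, in an unc-119(ed3) III background. They stably expressed a transgene of DAF-16 with a C-terminal GFP-FLAG tag, and the antibody label reads daf-16. Chromatin was sheared by sonication, and a control is listed among the inputs. Whole animals mix all tissues, so a peak cannot be assigned to a cell type, and in mixed-sex animals the number of X copies per cell also varies. Binding and X copy number therefore cannot be told apart in the strength of an X peak.

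DAF-16 is the worm FOXO transcription factor. Insulin signalling keeps it out of the nucleus through the AKT and SGK kinases, and when signalling falls it enters the nucleus and binds genes for stress resistance, metabolism, dauer entry and longevity. It recognizes the DAF-16 binding element (DBE, GTAAACA), and many of its sites carry the DAF-16 associated element (DAE, CTTATCA), which contains, read from the other strand, the site TGATAA of GATA factors. The worm X is present in a pair in hermaphrodites and singly in males. A condensin-based dosage compensation complex loads onto both X chromosomes of hermaphrodites at recruitment sites called rex, whose shared motif, MEX, has the core GCGCAGGG. The X also carries relatively few genes that are active in the germ line.

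The sequences under the strongest X peaks show how varied their motif content was. Each run below is 61 bases of the forward strand of WBcel235 (ce11) from RefSeq, and capitals mark a DBE, a DAE or a GATA site on either strand. The first 4 are the strongest X peaks, gbb-1 and daf-3 carry a DBE by an internal start, slc-25A21 carries a pair of DAEs, and sod-3 is the classical DAF-16 target.
ttr-48 (chrX:3842687-3842747): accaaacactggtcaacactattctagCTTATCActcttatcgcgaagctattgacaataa
F09E10.1 (chrX:1504913-1504973): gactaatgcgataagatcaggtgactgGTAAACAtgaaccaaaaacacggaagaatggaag
hlh-13 (chrX:4248527-4248587): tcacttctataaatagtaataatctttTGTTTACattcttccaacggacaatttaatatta
F46G10.1 (chrX:13310904-13310964): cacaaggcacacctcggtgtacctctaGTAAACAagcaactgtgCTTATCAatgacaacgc
gbb-1 (chrX:2966473-2966533): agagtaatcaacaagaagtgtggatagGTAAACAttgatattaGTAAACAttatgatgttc
daf-3 (chrX:823898-823958): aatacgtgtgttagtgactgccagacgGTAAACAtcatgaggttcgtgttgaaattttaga
slc-25A21 (chrX:16192699-16192759): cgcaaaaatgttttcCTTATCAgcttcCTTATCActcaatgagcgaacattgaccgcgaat
sod-3 (chrX:17092612-17092672): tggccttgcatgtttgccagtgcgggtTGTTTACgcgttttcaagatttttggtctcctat

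A second set shows the MEX core under X peaks. These are the 10 core sites within 75 bp of the 9 strongest summits that had one, and the pair of sites upstream of xol-1, the switch gene of sex determination. Each run is 40 bases of the same assembly, read on the strand of the core, which is in capitals.
F19H6.5 (chrX:12363023-12363062, reverse strand): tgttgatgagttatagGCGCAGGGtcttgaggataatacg
W02H3.3 (chrX:11094210-11094249, reverse strand): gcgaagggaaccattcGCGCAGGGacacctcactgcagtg
F22H10.2 (chrX:16682156-16682195, reverse strand): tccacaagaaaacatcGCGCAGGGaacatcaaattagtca
nspc-17 (chrX:14525884-14525923, reverse strand): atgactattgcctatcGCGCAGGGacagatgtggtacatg
gtr-1 (chrX:806658-806697, forward strand): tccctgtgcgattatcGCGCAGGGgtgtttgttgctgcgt
cest-16 (chrX:6296532-6296571, forward strand): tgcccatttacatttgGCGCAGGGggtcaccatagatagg
cest-16 (chrX:6296560-6296599, forward strand): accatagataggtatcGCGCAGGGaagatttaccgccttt
C41A3.2 (chrX:5429574-5429613, forward strand): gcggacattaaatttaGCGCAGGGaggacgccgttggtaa
F20B6.9 (chrX:4209250-4209289, reverse strand): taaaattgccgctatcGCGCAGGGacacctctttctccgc
ins-39 (chrX:1345040-1345079, forward strand): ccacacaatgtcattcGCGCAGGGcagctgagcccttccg
xol-1 (chrX:8036385-8036424, reverse strand): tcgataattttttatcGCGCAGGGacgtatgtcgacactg
xol-1 (chrX:8036419-8036458, forward strand): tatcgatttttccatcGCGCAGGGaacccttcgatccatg

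Peaks were denser on X than on any autosome. X held 23.1% of the nuclear peaks on 17.7% of the nuclear length and with 13.7% of the protein-coding genes. Its density was 114 peaks per Mb, against 81.5 over the autosomes, whose densest and sparsest were chromosome III at 92.6 and chromosome I at 74.4. Relative to genes, X had 74.0 peaks for every 100 protein-coding genes, against 39.0 on the autosomes and 48.3 on chromosome III.

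The density repeated in each replicate. When the list was replaced by the equally many strongest peaks of 1 replicate, X had 114 and the autosomes 81.6 peaks per Mb in replicate 1. In replicate 2 they had 113 and 81.7 peaks per Mb. The excess shrank against the gene-rich centres: the whole X was 1.11-fold denser than the middle 50% of each autosome, which had 103 peaks per Mb. In the whole pooled list, which adds weaker entries, X had 250 peaks per Mb and chromosome III had 278, so X was then no longer the densest.

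X peaks were also stronger. That is not independent of their density, because the list was cut on pooled signal. Of the pooled X entries 45.7% passed the cut, against 37.3% of the autosomal ones. Peak strength is the signal value deposited with each peak, whose scale is not stated, so it is used here only to rank and describe peaks of 1 list. The median X peak had a signal of 122, against 104 for the autosomes, with autosomal medians from 98.7 (chromosome I) to 111 (chromosome V). In replicate 1 the medians were 60.8 on X and 49.6 on the autosomes, and in replicate 2 they were 48.2 on X and 41.1 on the autosomes. X held 271 of the 875 peaks in the strongest 10% of the list, or 31.0% (Wilson 95% interval 28.0 to 34.1), and 164 of the 437 in the strongest 5%, or 37.5%, but 27 of the 87 in the strongest 1%, or 31.0%. In the weakest 10% its share was 20.6%. An interval here covers counting error only, and treats peaks as independent.

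**Figure D1:**
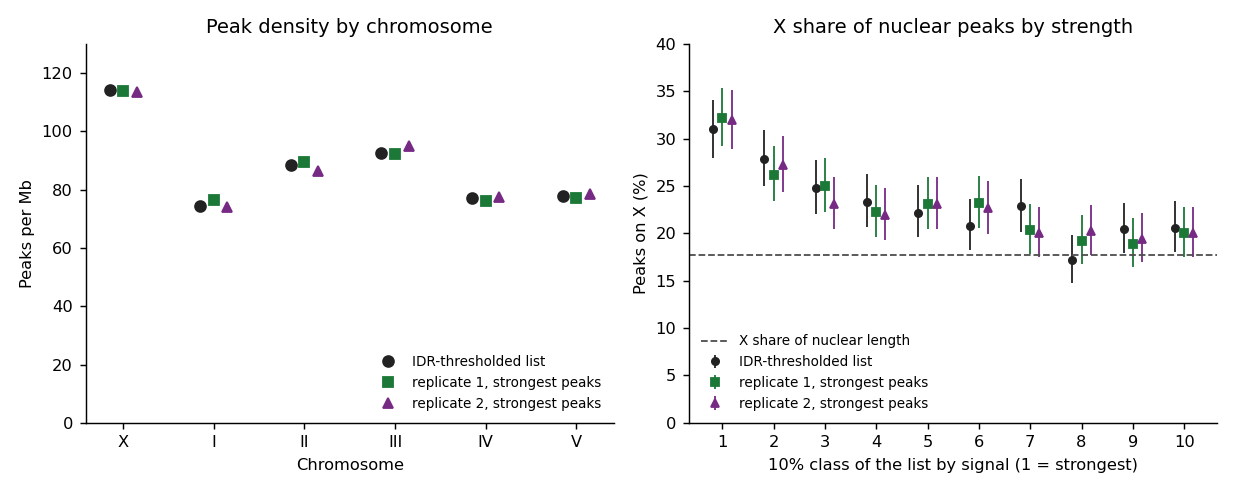
Left, peaks per Mb on each chromosome in the IDR-thresholded list and in the equally many strongest peaks of each replicate. Right, the percentage of nuclear peaks on X in each 10% class of the list by signal, with 95% Wilson intervals and a dashed line at the X share of nuclear length (17.7%). X stands above all 5 autosomes in the 3 lists, and its share is highest (31.0%) in the strongest 10% of the IDR-thresholded list.

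The peak at ttr-48, a transthyretin-like gene, was the strongest nuclear peak of the list. Its signal was 1392 in the list, 997 in replicate 1 and 401 in replicate 2, with the summit 297 bp upstream of the start. The next X peak, at 1231 (767 and 462 in replicates 1 and 2), lay 2154 bp downstream of the start of F09E10.1, beyond that short gene, with a DBE. The peak of hlh-13, which encodes a bHLH transcription factor, had a signal of 1200 (805 and 394) with a DBE and a GATA site. The fourth, at 1062 (592 and 473), lay in an intron of F46G10.1 and carried a DBE, a DAE and the GATA site within it. All 4 were found in both replicates, and they ranked 1, 3, 4 and 6 among all nuclear peaks.

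Of the 20 strongest X peaks, the others had signals from 680 to 897. Several sat near genes of known function. Those with a summit in a promoter window included mai-1 (889), which encodes an inhibitor of the mitochondrial ATPase, akt-2 (710), one of the AKT kinases that phosphorylate DAF-16, and gst-42 (680), a glutathione S-transferase gene. The fkh-9 peak (895), at a forkhead transcription factor gene, lay 2824 bp upstream of the nearest start. At gbb-1 (725), a subunit of the GABA-B receptor, the summit was 93 bp upstream of an internal start and had a pair of DBEs in the sequence shown.

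X summits lay farther from gene starts. The median distance to the nearest start of a protein-coding transcript was 942 bp on X and 556 bp on the autosomes, where it ran from 465 bp (chromosome V) to 616.5 bp (chromosome II). Over 2 kb away were 567 of the X summits, 28.1% (26.1 to 30.1), against 18.3% (17.4 to 19.2) on the autosomes. The class within 250 bp upstream of a start held 18.8% of X summits and 27.7% of autosomal summits. The share upstream of the nearest start was close in both, 66.0% on X and 68.8% on the autosomes.

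A promoter window here runs from 1000 bp upstream to 300 bp downstream of a start. It held the summit of 878 X peaks, 43.4% (41.3 to 45.6), against 56.9% (55.7 to 58.1) of the autosomal peaks and 53.8% of all nuclear peaks. Each autosome was higher, from 55.7% (chromosome III) to 58.9% (chromosome V). The replicates gave 44.1% on X against 55.4% on the autosomes in replicate 1, and 43.0% on X against 56.3% on the autosomes in replicate 2. Counted to the starts of genes of all types, the median distances were closer, 445 bp on X against 302 bp on the autosomes.

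**Figure D2:**
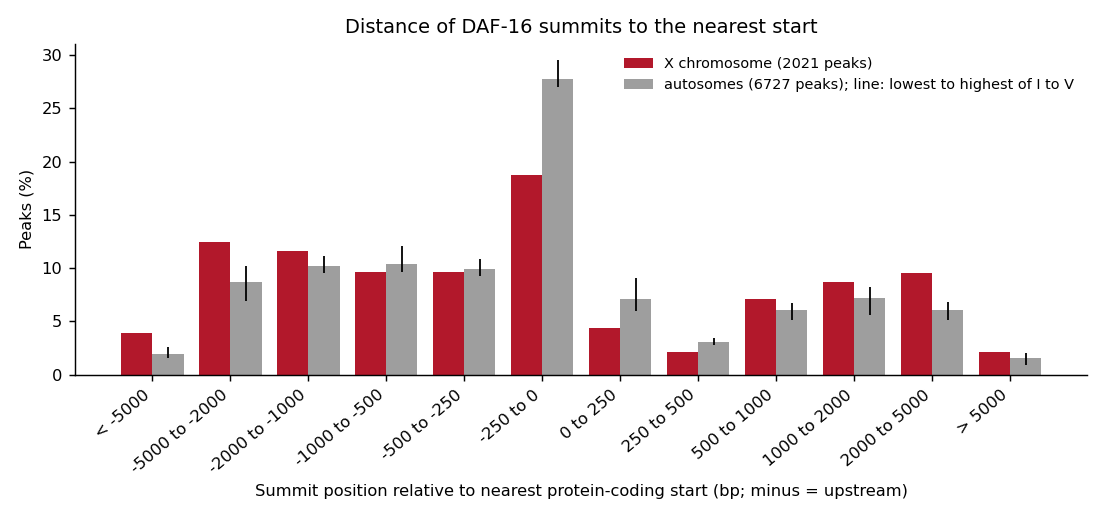
Percentage of summits in each class of signed distance (bp) to the nearest protein-coding start, X beside the autosomes, with a line from the lowest to the highest autosome. X is lower within 250 bp upstream (18.8% against 27.7%) and higher in the classes 2000 to 5000 bp away on either side.

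The layout of the chromosome differed in the same direction. Protein-coding genes on X had a median of 2123 bp to the upstream neighbouring gene, against 826 bp on the autosomes, and 23.5% of X bases lay in promoter windows, against 29.1%. Set against those bases, X promoter windows were 1.85-fold enriched in summits and autosomal windows 1.95-fold. Inside the windows X had 211 peaks per Mb of window, against 159 on the autosomes and 198 on chromosome III. In replicate 2 these were 207 on X and 199 on chromosome III. Outside them it had 84.3 peaks per Mb, against 49.6 on the autosomes and at most 55.5 on any autosome. X was 1.33-fold denser inside promoter windows and 1.70-fold denser outside them.

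By annotation class, X peaks differed most in introns and exons once the length of each class was counted. Intergenic sequence had 151 peaks per Mb on X and 140 on the autosomes, and chromosomes I, II and III, at 156, 154 and 180, were above X. Intronic sequence had 92.1 peaks per Mb on X and 55.0 on the autosomes, with the highest autosome, II, at 64.8. Exons that are neither coding nor UTR had 283 on X and 127 on the autosomes, from 70.1 (chromosome V) to 214 (chromosome III). That class mixes genes of every type, tRNA genes and pseudogenes included, and these were not separated. Coding exons had 34.7 on X and 19.3 on the autosomes, where chromosome V was highest at 22.6. The ratios of X to autosomes in the replicates were 1.102 and 1.096 for intergenic sequence, 1.61 and 1.62 for introns, and 1.65 and 1.63 for coding exons.

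As shares of peaks, intergenic sequence, introns and coding exons were close on X and the autosomes, whereas UTRs and other exons differed. Intergenic sequence held 55.8% of X peaks (53.6 to 58.0) and 56.8% of autosomal peaks (55.6 to 58.0), on 42.0% of X bases and 33.0% of autosomal bases. That difference of 1.00 percentage point turned round in either replicate alone. Introns held 24.1% and coding exons 5.94% of X peaks, against 22.3% and 5.99% of autosomal peaks. Exons of 5' UTRs held 3.36% of X peaks (2.66 to 4.24) and 5.19% of autosomal peaks (4.68 to 5.74). For 3' UTRs the shares were 2.67% (2.05 to 3.47) on X and 4.07% (3.63 to 4.57) on the autosomes. Exons of other transcripts held 8.07% of X peaks (6.96 to 9.33) and 5.59% of autosomal peaks (5.07 to 6.16). The strongest intronic peaks on X were those of F46G10.1 and tag-343 (734). The strongest in coding exons were that of gbb-1 and 1 nearest the start of F19H6.5 (657) but outside that gene.

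**Figure D3:**
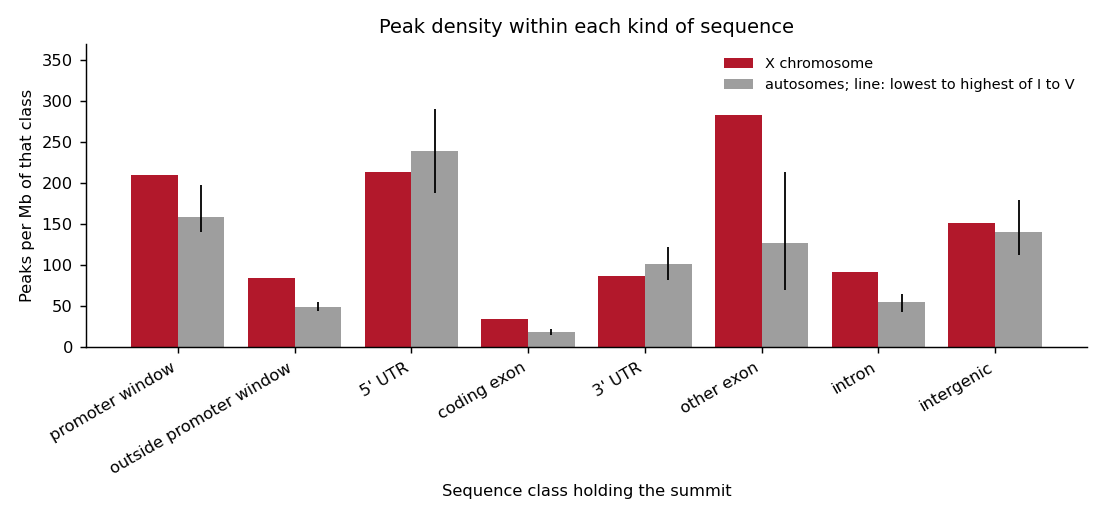
Peaks per Mb of each kind of sequence, X beside the autosomes, with a line from the lowest to the highest autosome. X exceeds every autosome in promoter windows, outside them, in coding exons, in other exons and in introns, and lies within the autosomal range for intergenic sequence (151 against 140 overall) and both UTR classes.

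Strength followed position in the same order on X and the autosomes. Summits in promoter windows had a median signal of 135 on X and 107 on the autosomes. Those outside a window but within 2 kb of a start had 108 on X and 94.8 on the autosomes. Summits over 2 kb away had 119 on X and 98.2 on the autosomes. At each distance the X median was higher.

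More X-linked genes had a summit in a promoter window, although fewer X summits lay in one. Such genes are called bound here: 747 of 2731 X-linked protein-coding genes, 27.4% (25.7 to 29.1), against 4040 of 17242 autosomal genes, 23.4% (22.8 to 24.1), and 24.0% of all. X was not the highest, since chromosome III had 30.5%. Among bound genes, 155 X-linked ones, 20.7%, had several summits in the window, against 13.9% of the autosomal ones. The middle 50% of the autosomes had 26.4% of genes bound.

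Genes with long upstream gaps accounted for more of the X and were bound more often there than on the pooled autosomes. Of X-linked genes, 30.2% had over 4 kb to the upstream neighbour, against 15.3% of autosomal genes. In that class 24.6% of X-linked genes were bound (21.8 to 27.6), against 17.2% of autosomal genes (15.8 to 18.7). For gaps of 1 to 2 kb the shares were 31.4% on X and 22.9% on the autosomes. Short gaps of up to 500 bp, before 12.5% of X-linked genes and 29.0% of autosomal genes, also had more bound genes on X, 33.3% against 26.5%. They were 27.8% on both for gaps of 500 to 1000 bp, and 19.5% on X against 21.2% on the autosomes for genes that overlap their neighbour. Chromosome III alone was near or above X except over 4 kb, where it had 20.1% bound. It had 25.6% for gaps of 2 to 4 kb (26.2% on X), 31.9% for 1 to 2 kb and 42.6% for 500 to 1000 bp. Up to 500 bp it had 31.6%, and for overlapping genes 24.8%.

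**Figure D4:**
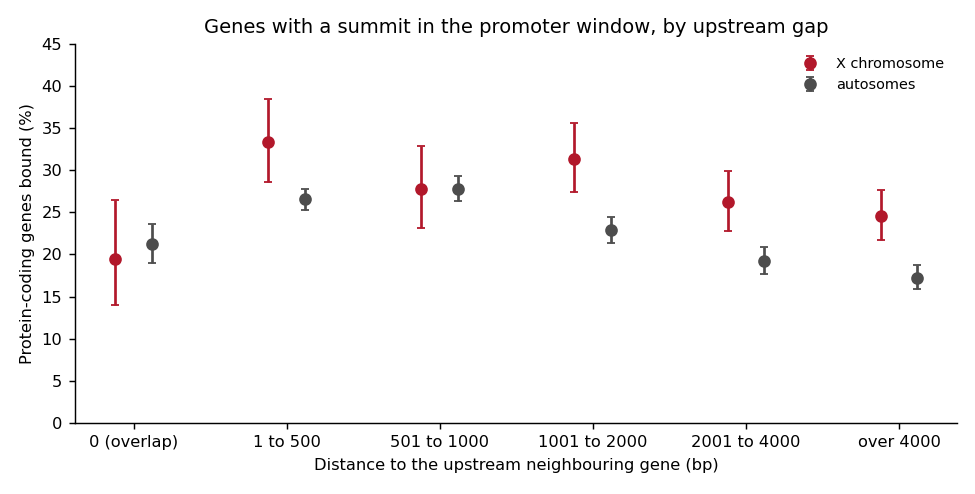
Percentage of protein-coding genes with a summit in the promoter window, by distance to the upstream neighbouring gene (bp), X beside the autosomes, with 95% Wilson intervals. The intervals of X and the pooled autosomes do not overlap for gaps under 500 bp and for the 3 classes over 1000 bp, where X is higher. Single autosomes are not drawn.

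X summits were closer together and spread more evenly along the chromosome. The median distance to the next summit was 2558 bp on X and 3608.5 bp on the autosomes, where it ran from 3114 bp (chromosome II) to 4127 bp (chromosome I). Another summit lay within 1 kb of 43.0% of X summits and 33.4% of autosomal summits, a difference of 9.58 percentage points. It was 4.73 against the middle 50% of the autosomes, 3.60 among the stronger 50% of peaks and 1.54 in the whole pooled list. In the whole pooled list the median spacing was 972 bp on X and 991 bp on the autosomes. Over whole 1-Mb bins, X counts ran from 62 to 166 with a coefficient of variation of 0.236, against 0.258 (chromosome III) to 0.409 (chromosome I). The middle 50% of X held 55.5% of its peaks and 52.9% of its genes. The middle 50% of the autosomes held 63.3% of their peaks and 55.7% of their genes.

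Chains of summits at most 1 kb apart reached 3 or more members in 98 places on X. They held 17.4% of X summits, against 9.33% (chromosome III) to 17.4% (chromosome II) on the autosomes, so long chains were not particular to X. The largest chains were on chromosomes II (9 summits) and I (8 summits). The largest on X, with 7 summits over 3799 bp, ran through introns by ZK470.2 and ZK470.4, and its peaks were of modest strength (36.8 to 250). Chains of 6 had as nearest starts those of C16B8.3, of mdl-1, the gene of a Mad-like bHLH factor, and of dao-3 and vem-1. The chain of 6 nearest mdl-1 (chrX:6748067-6750473) lay in introns beyond the end of that gene. A separate chain of 5 (chrX:6741668-6744746) lay over mdl-1 itself. The chain of 5 at mai-1 and gpd-2, a glyceraldehyde-3-phosphate dehydrogenase gene, held the mai-1 peak, and all 5 of its summits were in both replicates.

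Of 178 windows of 100 kb on X, 177 held a summit, with a median of 11. The densest held 28 summits and spans xol-1, dao-3 and vem-1 (chrX:8000001-8100000). A window with 27 summits includes daf-12 and yap-1 (chrX:10600001-10700000), and another with 27 includes nhr-71 and aakb-1 (chrX:13700001-13800000). The 3 had 29, 23 and 26 summits in replicate 1's strongest peaks and 23, 28 and 26 in replicate 2's. The longest stretch without a summit was 240015 bp (chrX:59268-299283), with 23 gene entries, and it was empty in the replicate and pooled lists too. The second, of 162162 bp, holds arg-1, ceh-39 and tbx-41, and the third, of 130582 bp, holds mec-2 and unc-97.

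Replicate overlap was slightly higher for X. A summit of each replicate's full list within 100 bp was found for 1617 X peaks, 80.0% (78.2 to 81.7), against 76.4% (75.4 to 77.4) of autosomal peaks and 77.3% of all. By strength, the share fell on X through 99.0%, 94.1%, 85.1% and 73.8% to 48.0% from the strongest to the weakest of 5 equal classes. On the autosomes, 5 classes cut separately gave 98.6%, 93.3%, 82.2%, 63.9% and 44.1%. These are not the same strengths: the fourth class ran from 57.9 to 96.4 on X and from 53.8 to 83.1 on the autosomes. Among the stronger 50% of all nuclear peaks the order turned round, with 93.2% on X and 94.5% on the autosomes. Across peaks matched in both replicates, Spearman's rho of the signals was 0.77 on X (n = 1617) and 0.73 on the autosomes (n = 5141), as a description over peaks that share libraries. The weakest X peak inside the threshold had a signal of 35.43 and the strongest X entry of the pooled list outside it 35.39, and 45.7% of pooled X entries were inside, against 37.3% of autosomal ones.

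The DBE lay within 75 bp of 202 X summits, 9.995% (8.76 to 11.4), against 8.62% (7.97 to 9.32) of autosomal summits and 8.94% of all. In flanks 500 bp to each side it was present in 2.70% on X and 1.72% on the autosomes, and over all windows of the same length in 2.35% of X windows and 1.56% of autosomal windows. The excess at summits over flanks was 7.30 percentage points on X and 6.90 on the autosomes. X peaks with a DBE had a median signal of 190 and those without 117; on the autosomes these were 173 and 99.8. The strongest X peaks with a DBE were those nearest F09E10.1, hlh-13 and F46G10.1. Weaker ones included those of daf-3 (593, rank 31 on X) and sod-3 (234, rank 445).

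The DAE lay by 416 X summits, 20.6% (18.9 to 22.4), against 22.2% (21.2 to 23.2) on the autosomes and 21.8% of all. Its flank shares were 3.46% on X and 3.37% on the autosomes, and the shares of all windows 2.67% and 2.58%. GATA sites, which every DAE contains, lay by 43.9% of X summits (41.8 to 46.1), against 42.0% (40.8 to 43.2) on the autosomes and 42.5% of all. Their flanks gave 16.0% on X and 15.4% on the autosomes, and all windows 14.6% and 13.6%. The intervals of X and the autosomes overlapped for the DAE, for GATA and for the DBE. Without the peaks near tRNA genes, a choice made after seeing the data, GATA was at 46.7% of X summits and 42.5% of autosomal summits, a difference of 4.23 percentage points in place of 1.93. The DAE was then at 22.3% of X summits and 22.6% of autosomal summits, a difference of -0.276 in place of -1.64. Letter-reversed controls stayed near their flanks: reversed DBE (ACAAATG) was at 4.80% of X summits and 3.76% of X flanks, against 3.85% of autosomal summits and 4.07% of all. The reversed DAE (ACTATTC) was at 2.18% of X summits and 2.50% of X flanks, against 2.32% of autosomal summits and 2.29% of all.

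Runs of GAGAGAGA, on either strand, were less common by X summits, at 4.16% (3.37 to 5.12) against 6.23% (5.68 to 6.83) on the autosomes and 5.75% of all. All windows held them in 0.840% on X and 1.02% on the autosomes. The E-box CACGTG, a site of bHLH factors, was at 5.99% of X summits, 6.04% of autosomal summits and 6.02% of all, with 1.98% of X windows and 2.63% of autosomal windows. The strongest X peak with an E-box was that of K02A6.3 (833), 208 bp upstream of the start. The next (694) was in no promoter window and lay 7943 bp upstream of the nearest start, that of W05H9.4. Motifs were matched exactly on both strands.

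The MEX core was rare, and its share by X summits was many times that by autosomal summits. It lay within 75 bp of 17 X summits, 0.841% (0.526 to 1.34), against 6 autosomal summits, 0.0892% (0.0409 to 0.194), and 0.263% of all. X flanks held it in 0.0495% and all X windows in 0.0631%. On the autosomes the flank and window shares were 0.0669% and 0.0401%. The core letters reversed (GGGACGCG) lay by 3 X summits, 0.148%, and 5 autosomal summits, 0.0743%, and 0.0914% of all.

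Counted from the motif, 81 core sites lie on X and 233 on the autosomes, 4.57 and 2.82 per Mb. A summit lay over 19 of the X sites, 23.5% (15.6 to 33.8), against 6 of the autosomal sites, 2.58% (1.19 to 5.50). The highest autosome was chromosome III with 3 of 46 sites. In the strongest peaks of replicate 1 the counts were 21 sites on X and 5 on the autosomes, and in those of replicate 2 they were 19 on X and 9 on the autosomes. The reversed core had 82 sites on X, 3 of them at summits, and 220 on the autosomes, 5 of them at summits.

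The 17 peaks with the core were strong, with a median signal of 373 against 121 for the other X peaks. Over the peaks with a match in that replicate, replicate 1 gave medians of 232 with the core and 67.6 without, and replicate 2 gave 153 and 51.4. Matches in both replicates were found for 15 of the 17. Their summits lay far from starts: the median distance was 3344 bp, and 3 of 17 were in a promoter window. Only 1 held a DBE and 2 a GATA site, against 10.03% and 44.21% of the other X peaks.

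The strongest core peak had a signal of 657 (423 and 241 in replicates 1 and 2). It lay in a coding exon 1819 bp downstream of the nearest start, that of F19H6.5, and beyond the end of that gene. Those nearest W02H3.3 and F22H10.2 had 574 (388 and 180) and 569 (335 and 225), and both were intergenic. An intergenic core peak had a signal of 327 (158 and 157). It lay 5379 bp upstream of the nearest start, that of dve-1, which encodes a homeodomain protein. The xol-1 peak, 4908 bp upstream of the start and over a pair of cores, had 136, with 160 in replicate 1 and no summit within 100 bp in replicate 2. The lowest, near R11.3, had 37.2, with 35.0 in replicate 2 and no matching summit in replicate 1.

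The letters beside the core also differed between sites with and without a peak. Of the 19 X sites at summits, 14 have T at the second base before the core, 11 have C just before it and 13 have A just after it; the runs above are 12 of these sites. All of TC before and A after were present at 8 of 19 X sites at summits, at 5 of 62 X sites away from summits and at 2 of 233 autosomal sites. Known rex sites were not mapped here, and binding of the dosage compensation complex was not measured.

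**Figure D5:**
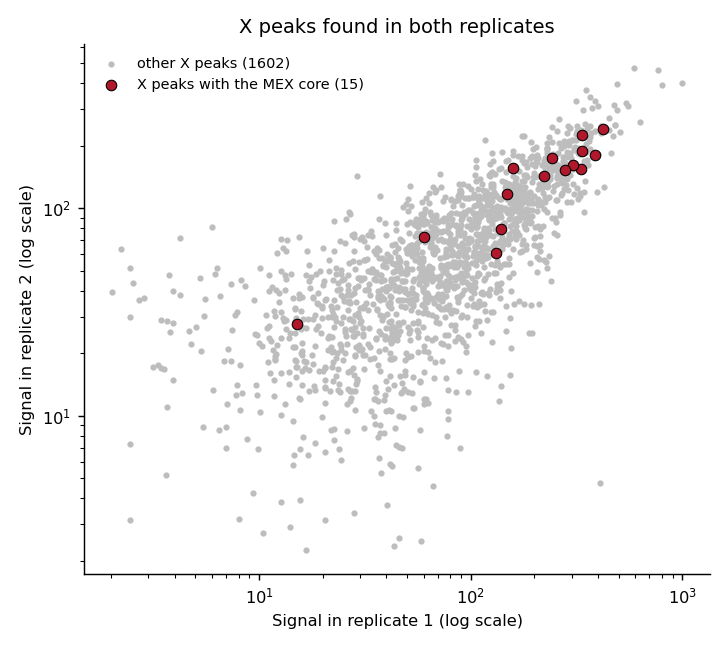
Signal in replicate 1 (x, log scale) and replicate 2 (y, log scale) of the X peaks found in both replicates, with the 15 that have the MEX core in red and the other 1602 in grey. Most core peaks lie in the upper range of both replicates. Over all X peaks matched in the given replicate, drawn or not, medians are 232 and 153 with the core, against 67.6 and 51.4 without.

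X carries many transfer RNA genes, and its peaks lay by them more often. Within 250 bp of one were 175 X summits, 8.66% (7.51 to 9.96), against 159 autosomal summits, 2.36% (2.03 to 2.75), and 3.82% of all. That stretch made up 0.803% of X and 0.222% of the autosomes, so the enrichment over bases was 10.8-fold on X and 10.6-fold on the autosomes. From the gene side, 189 of 276 X tRNA genes had such a summit, 68.5% (62.8 to 73.7), against 171 of 336 autosomal ones, 50.9% (45.6 to 56.2). The highest autosome, chromosome II, had 57.9%. Many tRNA genes are near-identical copies, so reads there may be split or shared between copies.

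The tRNA peaks had a median signal of 122, as did the other X peaks (122), and a DBE lay by 15 of them, 8.57%. GATA sites were at 14.3% of them, against 46.7% of the other X peaks. The strongest lay beside a tRNA gene 6358 bp upstream of npr-10, a neuropeptide receptor gene (429, with 272 and 147 in replicates 1 and 2). The next was in an intron of unc-115 (416, with 196 and 179). Without the tRNA peaks, X had 104 peaks per Mb against 79.6 on the autosomes, and a median distance of 883.5 bp against 546 bp.

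Of microRNA genes, 16 of 74 on X had a summit from 1000 bp upstream to 300 bp downstream of the start, 21.6% (13.8 to 32.3), against 44 of 187 autosomal genes, 23.5% (18.02 to 30.10). The strongest were at mir-248 (366, with 221 and 118 in replicates 1 and 2), at mir-239.1 and mir-239.2, which share a peak (299, with 230 and 95.8), and at mir-74 (292, with 188 and 106). A peak of 262 (155 and 21.3) was shared by mir-54, mir-55 and mir-56. Around let-7, the timing microRNA, the annotated gene and its 5 kb on each side held 3 summits with signals of 524, 234 and 78.1. Among snoRNA genes, 6 of 33 on X, 18.2%, and 110 of 313 on the autosomes, 35.1%, had a summit within 250 bp.

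Of the insulin, dauer and longevity list, 10 of 15 X-linked genes were bound, against 22 of 47 autosomal ones; each list below is to be read against the 27.4% of all X-linked genes bound. The akt-2 peak was strongest (401 and 310 in replicates 1 and 2), 774 bp upstream of the start. At daf-3, the co-SMAD of the dauer pathway, 4 summits lay in promoter windows, and the strongest (593, with 365 and 250) was 75 bp upstream of an internal start and had a DBE. The sod-3 peak, at the gene of a mitochondrial superoxide dismutase, had a signal of 234 (124 and 91.1) and a DBE, 133 bp upstream of the start. In daf-12, a nuclear receptor gene for dauer hormones, the window peak had 191 (116 and 34.5), and 15 summits lay in the gene or within 5 kb.

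Others in that list were tatn-1 (227), for a tyrosine aminotransferase, ftt-2 (201), for a 14-3-3 protein that binds DAF-16, and aak-2 (172), for an AMP kinase subunit. At sgk-1, for the kinase that acts beside AKT on DAF-16, a peak of 117 lay by an internal start; it had 64.2 in replicate 1 and no match in replicate 2. The genes without a summit in a window included cst-1, cst-2 and daf-9.

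Intestinal genes were bound in 12 of 18 cases on X and 24 of 30 on the autosomes. The elt-2 peak, at the gene of the main intestinal GATA factor, had a signal of 383 (229 and 148 in replicates 1 and 2), 429 bp upstream, with a GATA site. The others of highest signal were cpr-6 (355), a cathepsin B-like protease gene, cdf-2 (326), a zinc transporter gene, ifc-2 (210) and ifd-1 (208), of intestinal intermediate filaments, and lmp-1 (202), of a lysosomal membrane protein. The mrp-1 transporter gene and the yolk protein genes vit-1 and vit-2 had none.

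Metabolism and stress genes were bound in 16 of 23 cases on X and 84 of 114 on the autosomes. They included both subunits of propionyl-CoA carboxylase, pccb-1 (438, with 271 and 159 in replicates 1 and 2) and pcca-1 (332, with 179 and 144). Peaks also lay at dhs-28 (424), of peroxisomal fat oxidation, lmp-2 (370), tps-1 (285), a trehalose synthase gene with a DBE, and gpd-2 (283). The genes cysl-1, hosl-1 and hsp-43 had no window summit.

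Muscle and neuronal genes were bound least on X. None of 21 X-linked muscle genes had a window summit, which allows a share of up to 14.3% by a limit of 3 counts (Wilson upper bound 15.5%), and 5 of 44 autosomal ones did. Of 43 neuronal genes, 4 were bound, against 5 of 57 autosomal ones; these were unc-18 (234), for a synaptic vesicle fusion protein, mec-10 (192), for a touch channel subunit, lev-9 (123) and slo-2 (53.6). The potassium channel family twk had 3 of 10 X genes bound, whereas neuropeptide genes had 1 of 32, acetylcholine receptor genes 0 of 6, and chemoreceptor genes 0 of 33, which allows up to 9.09% by the same limit. The twk share on X, 30%, was near the 27.4% of all X-linked genes bound. The autosomes had 2 of 34 twk genes, 3 of 70 neuropeptide genes, 0 of 15 acetylcholine receptor genes and 37 of 1215 chemoreceptor genes bound.

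Of the sex determination and dosage compensation list, 3 of 7 X-linked genes were bound, against 8 of 23 autosomal ones. At sdc-2, whose product starts assembly of the dosage compensation complex in hermaphrodites, the peak had 272 (148 and 126 in replicates 1 and 2), 443 bp upstream. At sdc-1, which acts with it, the peak had 250 (146 and 99.2), and at lin-15B it had 125 (49.98 and 48.41). The X signal elements ceh-39, fox-1 and sex-1, and xol-1, which they repress, had no window summit; within 5 kb of xol-1 were 2 summits and of sex-1 there was 1 (109).

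Developmental timing and pattern genes were bound in 8 of 18 cases on X and 13 of 63 on the autosomes. The strongest were sem-5 (552, with 426 and 126 in replicates 1 and 2), the adaptor of receptor tyrosine kinases, sma-9 (288), a cofactor of body size signalling, and egl-17 (187), a fibroblast growth factor gene. At lin-14, the larval timing gene that lin-4 represses, the window peak was weak (46.8, with 32.4 in replicate 1 and no match in replicate 2), but 9 summits lay in the gene or within 5 kb, up to 217. In the hypodermal list 3 of 17 X genes were bound, against 5 of 51 autosomal ones; they were dpy-22 (201), a Mediator subunit gene, dpy-23 (183) and lon-2 (57.4), a glypican gene.

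Transcription factor genes were bound in 12 of 34 cases on X and 20 of 55 on the autosomes. After hlh-13, daf-3 and elt-2, the strongest were mxl-3 (284), of a bHLH factor of fat metabolism, mdl-1 (271) and egl-13 (225), a SOX factor gene. The nuclear hormone receptor family nhr had 13 of 23 X genes bound, 56.5%, against 80 of 246 autosomal ones, 32.5%, with nhr-35 (457) strongest on X. Collagen genes had 2 of 27 bound on X and 8 of 129 on the autosomes. All these lists and families are counts over neighbouring genes that can share a peak, with no test.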

How the data were processed

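The deposited narrowPeak lists were used as given. The authors deposited 1 list for each replicate (16146 and 21378 entries), 1 for the pooled replicates (22466) and the IDR-thresholded list (8777), all on ce11, per the file headers and the labels. The deposited signal of each peak has no stated scale. The deposited −log10 q-value was at 1 shared maximum for all IDR-thresholded peaks and was not used. As for aligner, peak caller, IDR threshold and read depth, none is given in the sources used here.

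Gene models came from Ensembl release 115 and bases from RefSeq sequence of the same assembly with Python 3.11.15, numpy 2.4.6 and pandas 2.3.3. A summit in overlapping features counted as 5' UTR before coding exon, then as 3' UTR, as exon of another transcript, as intron, and otherwise as intergenic. Scripts were checked on simulated peaks, where a density ratio of 1.43 was recovered as 1.43, a signal ratio of 2 as 1.92, a promoter share difference of -20 points as -20, and a DBE share of 19.7% added on X as 20.2%.

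Members, gene lists and motifs were chosen with earlier results of these data known. Densities by class, the flanks of the MEX core and values without tRNA peaks were added after the values had been seen. Genes named were the 20 strongest peaks, up to 6 bound and 3 unbound genes of each list, the strongest of each class and motif, those of the densest windows and longest gaps, and a fixed set. The MEX core peaks beyond the strongest 2, the larger chains of summits and the strongest members of gene families were chosen after their values were seen.

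All comparisons are descriptions over 1 group. An exact permutation of 1 chromosome among 6 cannot go below p = 0.167, so no p-value is given. Nothing states how the replicate cultures were separated, and the spread between them may be technical. Alternatives were other peak lists, windows, starts, match distances and motif widths.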

Additional observations from a re-analysis of the deposited data

How the results depend on the processing

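Among 147 alternative values of 16 comparisons of X with the autosomes, 12 turned the direction round, in the intergenic, intron, coding exon, replicate overlap, DAE and GATA shares. Differences are X minus autosomes in percentage points (median distance in bp), and ratios are X over autosomes. With the strongest peaks of 1 replicate alone, density was 1.39 to 1.40, signal 1.17 to 1.23, promoter share -13.3 to -11.3, distance 337 to 397, intergenic share 0.340 to 0.345 (turned round), spacing 0.717 to 0.763, genes bound 3.95 to 4.85 and DBE share 1.63 to 1.77. With the stronger 50% of peaks they were density 1.62, signal 1.09, promoter -11.8, distance 340, intergenic -2.78, spacing 0.636, bound 6.37 and DBE 0.705, and coding exon (1.83), replicate overlap (-1.30) and GATA (-2.15) turned round. In the whole pooled list they were density 1.14, signal 1.41, promoter -8.86, distance 315, intergenic 7.55 (turned round), spacing 0.981, bound 1.96 and DBE 2.12, with intron (-1.47) and DAE (0.745) turned round. Against the middle 50% of the autosomes, density was 1.11, intergenic 1.29 (turned round), spacing 0.889, bound 1.00 and DBE 0.814.

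Without peaks near tRNA genes, a choice made after seeing the data, density was 1.31, promoter -11.9, distance 337.5, bound 3.08, intergenic 0.279 and coding exon 0.426, both of these turned round. Weighting the 5 autosomes equally gave density 1.39, intergenic -0.978, bound 3.25 and coding exon 0.0403 (turned round). Counting each interval once gave density 1.39 and intergenic -1.03. The narrower window gave promoter -11.5, nearest starts only gave bound 6.70, starts of all genes distance 143, outermost starts 536, and gene bodies of any type intergenic -0.719. The DBE difference was 1.92 within 150 bp and 0.401 after subtracting the flanks. The cause of each shift was not tested. Read depth is unknown, so it sets no limit here. No paired analysis was possible because only 1 group was measured.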
